A study of Homo sapiens with 4 samples.

Results

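Long noncoding RNAs with a known place in liver cancer were examined in Huh7 cells, an established human hepatocellular carcinoma line, with and without transfected STYK1. The members were 10 genes given by name: MALAT1, NEAT1, HULC, GAS5, SNHG1, MEG3, TUG1, DANCR, HOTAIR and CYTOR. A gene was read from the probe set listed under its symbol in the platform annotation, and where it had several, from the one whose mean over all 4 arrays was highest. Of the 10 genes 9 had a probe set, 12 probe sets in all out of 53617 on the array, and NEAT1 was not analysed here. CYTOR was read from a probe set that lists MIR4435-2HG beside it, a near-identical copy elsewhere on the same chromosome, so the signals of the pair cannot be told apart. The control group was Huh7 transfected with the plasmid pcFLAG, and the STYK1 group was Huh7 transfected with pcFLAG-hSTYK1, which carries human STYK1, a receptor-like kinase. Each group had 2 arrays hybridised with biotin-labelled cDNA made from total RNA, and the labels give neither the time after transfection nor the share of cells transfected. The labels do not say whether the arrays of a group stem from separate cultures, so the spread behind each p-value is that between these samples and may be technical. RefSeq gives TUG1 as protein coding, since a reading frame has been annotated in it, and the other 9 as lncRNA.

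Long noncoding RNAs act as RNA rather than as templates for protein. Some stay in the nucleus, where MALAT1 lies in the speckles that store splicing factors and NEAT1 builds paraspeckles. Others, such as GAS5 and SNHG1, are spliced hosts whose introns are cut into small nucleolar RNAs (snoRNAs, guides for the modification of ribosomal RNA) and whose exons are removed by nonsense-mediated decay. In liver cancer HULC, MALAT1, HOTAIR, SNHG1, DANCR and CYTOR have been described as raised, and MEG3 and GAS5 as lowered.

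The whole table was checked first. STYK1 read 0.26 and 0.61 with pcFLAG and 7.40 and 7.86 with STYK1, so the labels matched the transfected gene, and its probe set alone passed the test (limma, adjusted p = 0.0373), a share of 0.00187% of all probe sets. Array medians lay between 0.615 and 0.629 log2 units, and correlations between arrays between 0.985 and 0.987. The floor, a level at or under which signals were treated as background, was set per array at the 95th percentile of 432 probe sets for olfactory receptors and lay between 0.73 and 0.78. Of 10 measured hepatocyte genes all 10 lay above it by their mean, among them ALB and AFP. The immune marker PTPRC, the endothelial markers VWF and CDH5 and the stromal markers LUM and DCN lay under it on all 4 arrays. By their mean, 2 of 5 immune markers (LYZ and CD14) and 1 of 6 stromal markers (COL1A1) lay above it. So did 4 of 6 cholangiocyte markers and 0 of 5 endothelial markers. Signals of different probe sets are not on a common scale, so the level of a gene is compared only with itself and with the floor. Differences between the groups are also ranked and summarised over genes, and some marker signals are summed per array.

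**Figure D1:**
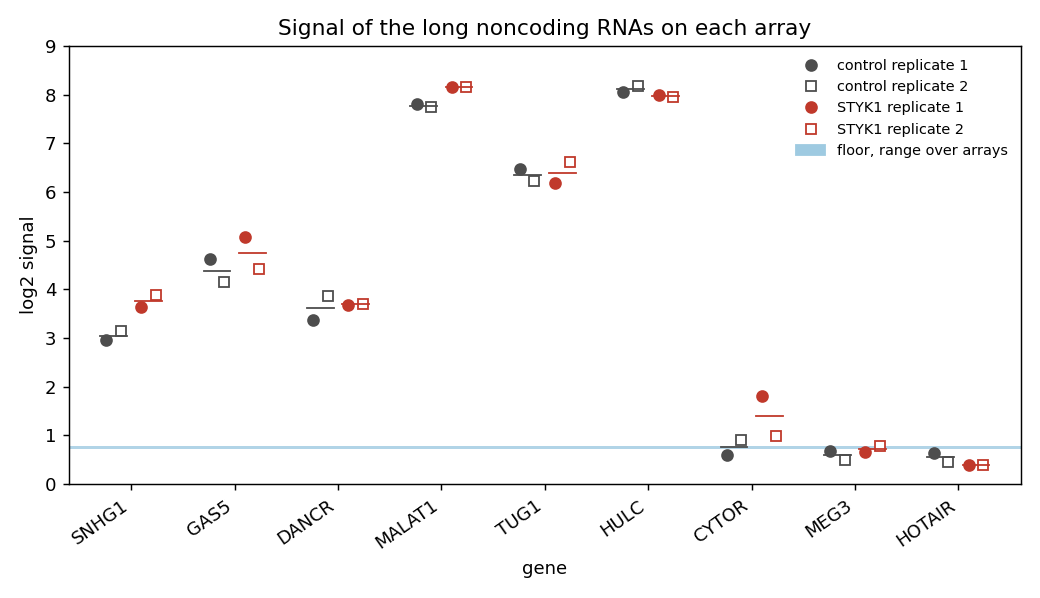
Log2 signal (vertical axis) of the 9 measured long noncoding RNAs on each of the 4 arrays, with a line at each group's mean and a band for the floor. SNHG1 and MALAT1 show STYK1 arrays above both controls with a clear gap. MEG3 and HOTAIR lie under the band, except MEG3 on STYK1 replicate 2, which is just above it.

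No member passed the test between the groups, with 0 of 9 called (limma, adjusted p from 0.979 to 0.999). At an unadjusted p under 0.05 there were 2, SNHG1 and MALAT1, both higher in the STYK1 arrays, against 4.64% of all probe sets in either direction and 2.73% higher. The groups did not overlap for 5 of the 9, which was the case for 32.8% of all probe sets. Of these 5, SNHG1, MALAT1 and CYTOR were higher in the STYK1 arrays, as 17.4% of all probe sets were, and HULC and HOTAIR lower. Over the 9 measured members the median difference was 0.14 log2 units, with 7 higher and 2 lower, against a median of 0.0056 over all probe sets, of which 51.9% were higher. That median is the value of MEG3, which like HOTAIR had a mean under the floor. Of the 7 members with a mean above the floor 6 were higher and 1 lower. Their median was 0.37, against 0.015 over all probe sets above the floor. CYTOR passed this filter only through the STYK1 arrays, with a control mean of 0.75, inside the range of the floors. Over the members above the floor on all 4 arrays the median was 0.22. The members were chosen with earlier results of these data known, so their counts are given as a description. In RNA from a whole culture, fewer cells that carry a transcript and less of it per cell cannot be told apart.

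SNHG1, a host gene whose introns carry the box C/D snoRNAs of the U22 cluster, showed the largest difference of the 9 members. Its signal was 2.96 and 3.14 with pcFLAG and 3.64 and 3.89 with STYK1, replicate 1 first here and below. Both STYK1 arrays therefore lay above both controls, with a gap of 0.50 log2 units between the groups. The means were 3.05 ± 0.12 in the controls and 3.77 ± 0.18 in the STYK1 arrays (SD, n = 2 each). The difference was 0.71 log2 units with a standard error of 0.13 and a 95% interval, not adjusted for multiple genes, of 0.37 to 1.05, or 1.64-fold; over all probe sets it fell short of the threshold (limma, adjusted p = 0.979). With any one array left out the difference lay between 0.59 and 0.84. Among 454 lncRNA genes with 1 symbol and a mean above the floor, 1 had a larger difference than SNHG1. The snoRNAs of its introns were not analysed here.

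The promoter window of SNHG1 is shown because this member differed most. It spans 250 bases before to 50 bases after the RefSeq start, at chr11:62855836-62856135 on the minus strand of GRCh38.p14. Capitals mark matches, on either strand, to any of 4 short motifs, and no match overlapped another. The TATA box was searched for as TATAAA. The GC box, which SP1 family factors bind, was searched for as GGGCGG. The CCAAT box was searched for by the letters of its name. The cyclic AMP response element was searched for as TGACGTCA, its palindromic form.
SNHG1: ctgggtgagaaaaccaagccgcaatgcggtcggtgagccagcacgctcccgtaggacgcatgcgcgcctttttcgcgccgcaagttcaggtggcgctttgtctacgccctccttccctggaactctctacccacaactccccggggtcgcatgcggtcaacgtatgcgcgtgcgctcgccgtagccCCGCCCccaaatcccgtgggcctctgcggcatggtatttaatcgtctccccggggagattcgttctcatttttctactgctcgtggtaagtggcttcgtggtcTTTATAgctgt
The window held 1 GC box match, which began 64 bases before the start, and 1 TATA box match after the start, both on the strand opposite to the gene, so that the printed letters are the reverse complements of the motifs. Over 35116 windows of 300 bases in the same RefSeq table, 45% held a GC box match, 11.5% a TATA box match, 34.6% a CCAAT match and 1.85% a cyclic AMP response element match. A match is only a run of letters and was not tested as a binding site.

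GAS5, another snoRNA host among the members, is known to accumulate when growth stops, and its difference depended on which arrays were kept. It read 4.62 and 4.14 with pcFLAG and 5.08 and 4.42 with STYK1. The groups overlapped, since STYK1 replicate 2 lay under control replicate 1. The difference was 0.37 log2 units (standard error 0.28; limma, adjusted p = 0.979) and a 95% interval of -0.36 to 1.10. It was 0.04 without STYK1 replicate 1 and 0.70 without STYK1 replicate 2. Among the controls, it was 0.61 without replicate 1 and 0.13 without replicate 2. A second probe set that lists GAS5 together with its antisense gene GAS5-AS1 lay under the floor on all 4 arrays, at 0.59 to 0.78 log2 units against floors of 0.73 to 0.78, and gives no level for either.

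The snoRNAs inside GAS5 did not follow one direction. Of 10 listed, 2 had a probe set of their own: SNORD75 and SNORD78, box C/D snoRNAs. SNORD75 read 2.54 and 2.84 with pcFLAG and 3.17 and 3.37 with STYK1, which is 0.58 higher (standard error 0.14). SNORD78 read 8.85 and 8.74 with pcFLAG and 8.55 on both STYK1 arrays, a difference of -0.24 (standard error 0.091). The groups were apart for both, SNORD75 upward and SNORD78 downward, as they were for 32.8% of all probe sets in either direction. Both had an unadjusted p under 0.05, as 4.64% of all probe sets did, and neither passed (limma, adjusted p = 0.979 for each).

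**Figure D2:**
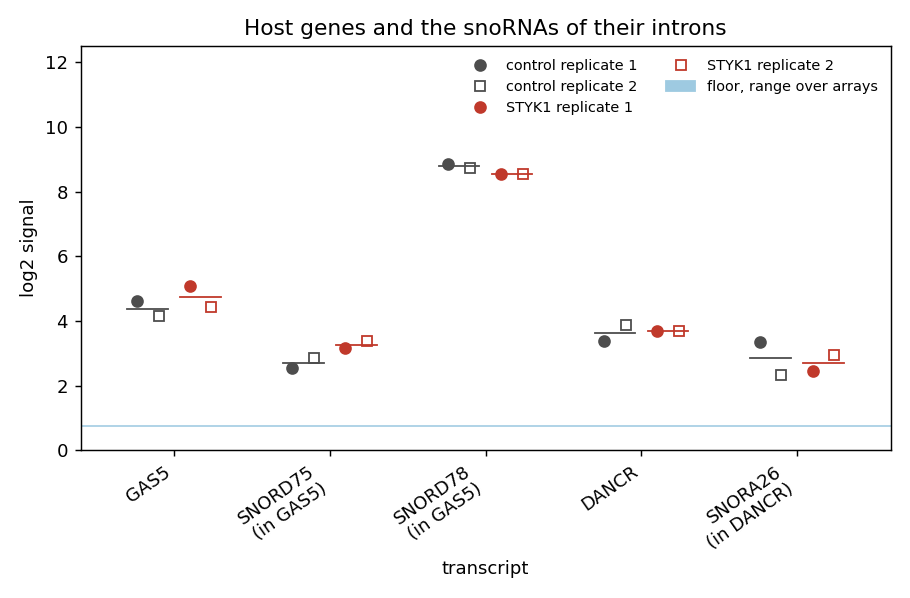
Log2 signal (vertical axis) of the host genes GAS5 and DANCR and of the snoRNAs in their introns on each array, with a line at each group's mean and a band for the floor. SNORD75 lies higher and SNORD78 lower in both STYK1 arrays, while the arrays of GAS5, DANCR and SNORA26 overlap between the groups.

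DANCR, an RNA first described as holding back differentiation, showed no separation. It read 3.38 and 3.86 in the controls and 3.69 on both STYK1 arrays, which lay between the controls. The difference was 0.07 log2 units with a 95% interval of -0.39 to 0.54 (limma, adjusted p = 0.996), and it turned to -0.17 without control replicate 1. SNORA26, the box H/ACA snoRNA in a DANCR intron, read 3.36 and 2.34 with pcFLAG and 2.45 and 2.93 with STYK1, also with overlap.

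MALAT1, an abundant nuclear RNA that influences splicing factors in nuclear speckles, was higher in both STYK1 arrays, which were nearly equal. Its signal was 7.80 and 7.75 with pcFLAG and 8.16 and 8.17 with STYK1, with a gap of 0.36 log2 units between the groups. The group means were 7.77 ± 0.038 and 8.16 ± 0.0055 (SD, n = 2 each). The difference was 0.39 log2 units with a standard error of 0.085 and a 95% interval of 0.17 to 0.61, or 1.31-fold, short of the threshold (limma, adjusted p = 0.979). Without any one array it stayed between 0.36 and 0.42, a narrower range than for SNHG1. Of the 454 lncRNA genes above the floor, 19 had a larger difference.

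RefSeq lists separate start sites for MALAT1, and the signal of its single probe set cannot be assigned to either. Both windows are shown because they differ in composition, with the same capitals as for SNHG1. The first lies at chr11:65497488-65497787 and the second at chr11:65498795-65499094, both on the plus strand of GRCh38.p14.
MALAT1 upstream start: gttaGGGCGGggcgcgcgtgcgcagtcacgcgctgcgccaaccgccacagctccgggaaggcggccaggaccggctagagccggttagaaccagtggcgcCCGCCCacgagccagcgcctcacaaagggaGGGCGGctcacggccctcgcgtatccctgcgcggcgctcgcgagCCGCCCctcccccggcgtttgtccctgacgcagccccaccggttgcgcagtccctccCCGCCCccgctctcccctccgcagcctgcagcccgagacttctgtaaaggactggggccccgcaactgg
MALAT1 downstream start: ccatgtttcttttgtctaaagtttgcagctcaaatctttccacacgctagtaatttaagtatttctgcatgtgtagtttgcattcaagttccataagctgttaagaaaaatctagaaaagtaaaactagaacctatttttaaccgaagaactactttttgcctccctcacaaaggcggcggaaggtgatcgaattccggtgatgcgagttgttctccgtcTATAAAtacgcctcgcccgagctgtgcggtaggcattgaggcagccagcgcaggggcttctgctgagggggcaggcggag
The upstream window had a GC content of 73.7% and 5 GC box matches, and the downstream window had 46.0%, against a median of 58.7% over all windows. In the downstream window the TATA box match began 30 bases before the start.

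Nuclear speckle splicing factors, the proteins among which MALAT1 resides, were higher for 11 of 14 measured genes and lower for 3, with a median of 0.07 log2 units; 0 passed and 0 had an unadjusted p under 0.05 (limma). Named by size, the splicing regulator TRA2B differed by 0.29, the speckle scaffold SON by 0.23, SRSF11 by 0.23 and the splicing coactivator SRRM1 by -0.15. Paraspeckle proteins were higher for 7 of 11 and lower for 4, with a median of 0.03. TARDBP (0.31), HNRNPH3 (0.25), ZC3H6 (-0.32) and NONO (0.15) led this list by size, and the core protein SFPQ, which lies in paraspeckles with NONO, differed by 0.03. Here 0 passed, and ZC3H6 alone had an unadjusted p under 0.05 (limma).

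**Figure D3:**
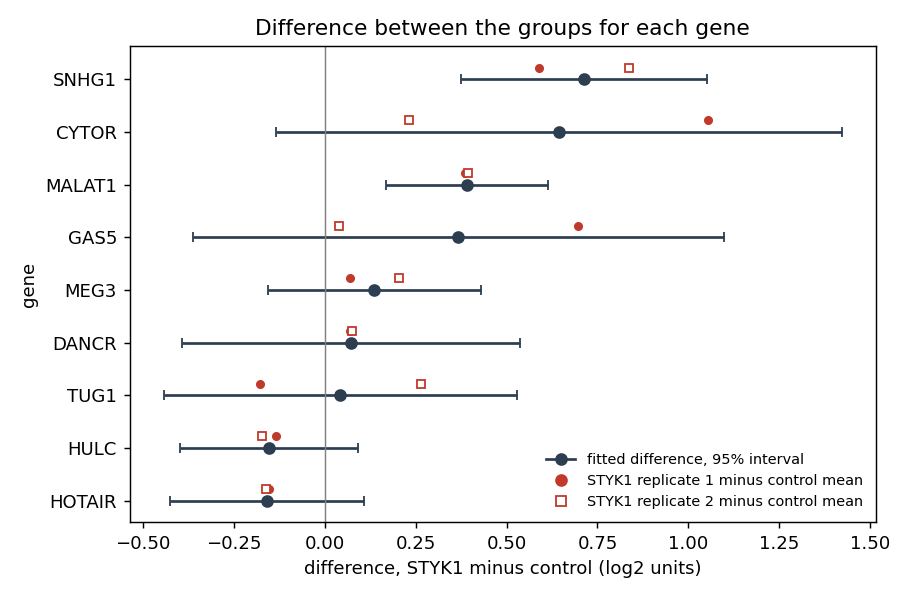
Difference between STYK1 and control arrays in log2 units (horizontal axis) for each of the 9 measured genes, with the 95% interval of the fit, and each STYK1 array against the control mean in red. The intervals of SNHG1 and MALAT1 lie above 0; for CYTOR, GAS5 and TUG1 the STYK1 arrays lie far apart from each other.

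HULC, a cytoplasmic RNA named for its high level in liver cancer, was slightly lower in the STYK1 arrays. It read 8.06 and 8.18 with pcFLAG and 7.99 and 7.95 with STYK1. The groups were apart by 0.07 log2 units, less than the distance between the controls. The difference was -0.15 with a standard error of 0.093 and a 95% interval of -0.40 to 0.09 (limma, adjusted p = 0.979). With any one array left out it lay between -0.22 and -0.09, where groups that do not overlap cannot change sign. HULC had a signal far above the floor on every array.

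TUG1, which is widely expressed and reported to bind chromatin regulators, overlapped between the groups. It read 6.48 and 6.23 with pcFLAG and 6.17 and 6.62 with STYK1, so the STYK1 arrays held both the lowest and the highest value. The difference was 0.04 log2 units with a 95% interval of -0.44 to 0.53 (limma, adjusted p = 0.999). It turned to -0.18 without STYK1 replicate 2 and to -0.08 without control replicate 2.

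CYTOR, also known as LINC00152 and reported to favour proliferation, was high on 1 array. The probe set it shares with MIR4435-2HG read 0.60, which is under the floor, and 0.91 with pcFLAG, against 1.81 and 0.99 with STYK1. Control replicate 2 and STYK1 replicate 2 were apart by 0.08, and STYK1 replicate 1 stood above the other three. The difference was 0.64 log2 units with a standard error of 0.30 and a 95% interval of -0.14 to 1.42 (limma, adjusted p = 0.979). It was 0.23 without STYK1 replicate 1 and 1.05 without STYK1 replicate 2.

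MEG3, a maternally expressed imprinted RNA regarded as a growth suppressor, gave no signal clearly above background. Its best probe set read 0.68 and 0.50 with pcFLAG and 0.66 and 0.79 with STYK1, with STYK1 replicate 2 alone above the floor. The 2 other probe sets, of which 1 lists the microRNA gene MIR770 as well, read 0.36 to 0.82, above the floor on control replicate 1 alone. With both groups at background no fold is given. In the same imprinted region the paternally expressed DLK1, a marker of hepatoblasts, read 6.78 and 6.95 with pcFLAG and 6.92 and 6.76 with STYK1, whereas RTL1, MEG8, DIO3 and DIO3OS lay under the floor on all 4 arrays. Of the 7 genes of the region 2 were higher and 5 lower, with MEG9 at -0.27 near the floor, and 0 passed or had an unadjusted p under 0.05 (limma).

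The MEG3 promoter window is shown because its cyclic AMP response element is a known feature of this promoter and the gene lay at background here. RefSeq lists several nearby starts, and the window given is chr14:100825868-100826167 on the plus strand of GRCh38.p14, with capitals as above.
MEG3: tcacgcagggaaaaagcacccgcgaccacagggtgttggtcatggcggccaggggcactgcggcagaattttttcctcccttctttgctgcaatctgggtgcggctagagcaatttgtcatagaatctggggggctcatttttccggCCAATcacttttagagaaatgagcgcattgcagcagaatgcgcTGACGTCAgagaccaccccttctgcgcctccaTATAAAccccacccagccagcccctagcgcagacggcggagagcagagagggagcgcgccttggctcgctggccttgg
It held 3 matches: the cyclic AMP response element from 60 bases before the start, a TATA box from 28 bases before it and a CCAAT box from 103 bases before it. These distances depend on the start used. From the other starts listed, the element began 50 or 74, the TATA box 18 or 42 and the CCAAT box 93 or 117 bases before. The methylation of this window was not measured.

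HOTAIR, transcribed from the HOXC cluster and reported to bind the Polycomb complex PRC2, lay under the floor on all 4 arrays. It read 0.64 and 0.46 with pcFLAG and 0.40 and 0.39 with STYK1, and no fold is given for a gene at background in both groups. Among PRC2 subunits, other HOTAIR partners and HOXC genes, 3 of 14 were higher and 11 lower, with a median of -0.04 and 0 at an unadjusted p under 0.05 (limma, 0 passed). HOXC8 (-0.31) and HOXC9 (-0.25) differed most and overlapped between the groups, while the PRC2 subunit EED (-0.18) did not overlap and the catalytic subunit EZH2 differed by -0.02. RCOR1, a corepressor of the complex that holds KDM1A, differed by 0.09.

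Other snoRNA host genes leaned to the higher side. Of 13 measured genes of the list 10 were higher and 3 lower, with a median of 0.12 log2 units, against 0.0022 over all named genes; 0 passed and 1, SNHG12, had an unadjusted p under 0.05 (limma). CCDC197, GNAS-AS1 and RPSAP52 stood on the list but are not known as snoRNA hosts, and without them 9 of 10 were higher. A further 9 listed hosts had only probe sets shared with other genes and were left out. SNHG12 read 1.90 and 1.67 with pcFLAG and 2.24 and 2.10 with STYK1, which is 0.39 higher (standard error 0.12). SNHG21 (0.25, near the floor), SNHG17 (0.20) and SNHG15 (0.16) came next, excluding RPSAP52 (-0.24), which had a mean under the floor. With each gene centred on its own mean over the arrays, the 10 hosts averaged -0.10 and -0.05 with pcFLAG and 0.17 and -0.02 with STYK1. STYK1 replicate 1 thus stood above the other arrays on this list, as it did for GAS5 and CYTOR, whereas SNHG1 was highest in STYK1 replicate 2.

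**Figure D4:**
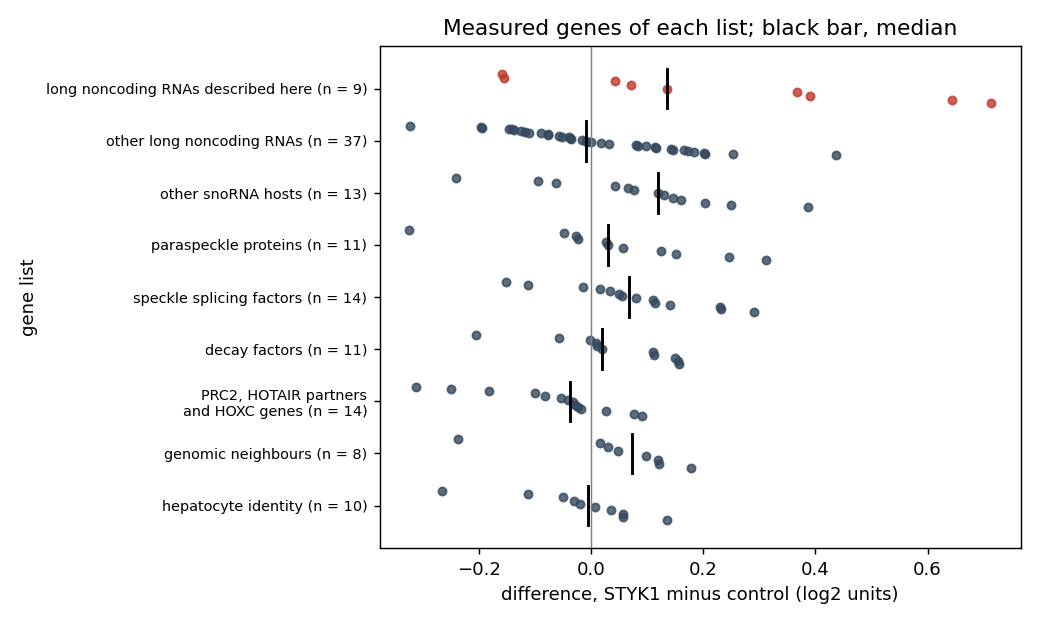
Difference between STYK1 and control arrays in log2 units (horizontal axis) for each measured gene of the lists named on the vertical axis, with a black bar at the list's median; the vertical spread within a list only separates the points. The medians run from -0.04 for PRC2, HOTAIR partners and HOXC genes to 0.12 for other snoRNA hosts and 0.14 for the 9 members. Genes with a mean under the floor are included, among them MEG3 and HOTAIR.

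Nonsense-mediated decay factors, which degrade spliced GAS5 and SNHG1, differed little. Of 11 measured genes 8 were higher and 3 lower, with a median of 0.02 and 0 at an unadjusted p under 0.05 (limma, 0 passed). SMG5, which recruits decay enzymes, differed by -0.20, the endonuclease SMG6 by 0.16, the exon junction protein EIF4A3 by 0.16 and its partner MAGOH by 0.15. The central helicase UPF1 read 6.10 and 6.08 with pcFLAG and 6.02 and 6.15 with STYK1.

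Other long noncoding RNAs studied in liver cancer gave a median of -0.0088 over 37 measured genes, with 16 higher, 20 lower and 1 with equal means. Of the 37, 13 had a mean above the floor, and over these the median was 0.12, with 7 higher and 6 lower. Among the 37, 0 passed, and 2, HAGLR and KCNQ1OT1, had an unadjusted p under 0.05 (limma). LUCAT1 (0.44), known from the response to oxidative stress, read 0.56 and 0.53 with pcFLAG and 1.29 and 0.68 with STYK1, so only STYK1 replicate 1 lay above the floor. Through that array alone LUCAT1 counts among the 13. HAGLR, from the HOXD cluster, differed by -0.32, the imprinted KCNQ1OT1 by 0.25 and the snoRNA host ZFAS1 by 0.20. ZFAS1 read 6.65 and 6.66 with pcFLAG and 6.87 and 6.84 with STYK1, with no overlap. Over all 2192 lncRNA genes with 1 symbol, the groups did not overlap for 33.1% and 2.74% had an unadjusted p under 0.05 (limma, 0 passed).

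Protein-coding neighbours of the members in the RefSeq gene order differed by -0.24 to 0.18 log2 units. SLC3A2, the amino acid transporter subunit next to SNHG1, read 6.65 and 7.22 with pcFLAG and 7.46 and 6.77 with STYK1, with overlap. WDR74, on the other side of SNHG1, differed by 0.03, MORC2 beside TUG1 by 0.12, FRMD8 beside NEAT1 by 0.12 and LTBP3 near MALAT1 by 0.05. ERVMER34-1 near DANCR differed by -0.24 but lay near the floor. It read 0.84 and 1.08 with pcFLAG and 0.77 and 0.67 with STYK1, with STYK1 replicate 2 under the floor. Of 8 measured neighbours 7 were higher and 1 lower, with a median of 0.07 and 0 at an unadjusted p under 0.05 (limma, 0 passed).

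Markers of liver and of other cells were set beside these values. Hepatocyte genes were higher for 5 and lower for 5 of 10, with FOXA2 at -0.26, ALB at 0.14, FOXA1 at -0.11 and APOB at 0.06. Of 6 stromal markers COL1A1 alone had a mean above the floor. Their summed log2 signal was 3.81 and 4.08 with pcFLAG and 3.18 and 3.46 with STYK1, mostly from genes at background. The summed signal of 5 endothelial markers was 2.57 and 2.60 with pcFLAG and 2.38 and 2.48 with STYK1, with 0 of 5 above the floor by their mean. Of 5 immune markers LYZ and CD14 lay above the floor, with differences of 0.05 and -0.07. Of 6 cholangiocyte markers SOX9, EPCAM, KRT19 and SPP1 did, and KRT19, a keratin, read 3.36 and 3.31 with pcFLAG and 3.04 and 3.12 with STYK1. No gene of these marker lists passed, and KRT19 alone had an unadjusted p under 0.05 (limma). Whether the differences of these markers have a part in any member's difference was not tested.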

How the data were processed

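Huh7 RNA from 4 samples was amplified, labelled with biotin and hybridised to Affymetrix whole-transcript arrays, according to the labels' protocols. A single table of processed log2 signals was deposited by the authors, with 53617 probe sets and 1 column per array. Per the submitters' processing notes the software was the Transcriptome Analysis Console; its version, normalization and background correction are not stated there. The log base was inferred from the range of the values. Background correction that shrinks dim signals would lower the differences of dim genes.

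Platform annotation named the probe sets, with 90 symbols updated through RefSeq (GRCh38.p14): 23871 had 1 symbol, 1842 several and 27904 none. Genes other than the members were read from probe sets with 1 symbol only. The test was limma 3.58.1 in R 4.3.3 (lmFit and eBayes, two-sided, 2 residual degrees of freedom), p-values were adjusted by Benjamini-Hochberg across the whole table, and the threshold was 0.05. The script was tested on simulated data with 200 changed probe sets. The number of arrays limits the precision: the median standard error of a difference was 0.11 log2 units.

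The members and lists were chosen with earlier results of these data known. All members are named, and from each other list up to 4 genes with a mean above the floor and the largest differences; SFPQ, UPF1, EZH2, LTBP3, WDR74, RTL1, MEG8, DIO3, DIO3OS and individual markers of cell types were added after their values were seen. Alternatives were leaving out each array, the replicate number as a block, a variance trend, quantile normalization, a filter at the floor, the mean of a gene's probe sets, and members above the floor only. Promoter windows come from RefSeq, with entries for 7 of the 10 genes.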

Additional observations from a re-analysis of the deposited data

How the results depend on the processing

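No member passed under any of the alternatives run, with adjusted p-values of 0.891 to 0.9997 (limma). The direction of SNHG1, MALAT1, GAS5, CYTOR and HULC held in each alternative. So did that of MEG3 and HOTAIR where it could be computed, but their readings lay at background. Most alternatives could not change a direction. The replicate block, the variance trend and the filter leave a difference as it is, as does averaging for a gene with 1 probe set. Leaving out 1 array cannot reverse groups that do not overlap, as for SNHG1, MALAT1, CYTOR, HULC and HOTAIR. MEG3 and HOTAIR have no value under the filter at the floor. The 2 other probe sets of MEG3 differed by -0.023 and -0.0084, opposite to the chosen one. With 1 array left out DANCR ranged from -0.17 (without control replicate 1) to 0.31, and TUG1 from -0.18 (without STYK1 replicate 2) to 0.26, with -0.08 without control replicate 2. The median difference of the members was 0.070 to 0.23 with 1 array left out and 0.37 under the filter at the floor, which drops 2 dim members; over the members above the floor on all 4 arrays it was 0.22. The 1 changed probe set, that of STYK1, became 0 with each array left out (lowest 0, highest 0) and 0 with the replicate block; these leave fewer residual degrees of freedom. A group left with 1 array takes its spread from the other group. Since STYK1 itself did not pass with an array left out or with the replicate block, those fits cannot tell whether a member changed. The labels do not pair the replicate numbers, and over all probe sets the same-numbered arrays deviated from their group means with a correlation of -0.044. With the replicate block GAS5 differed by 0.37 with a standard error of 0.10. Under quantile normalization SNHG1 differed by 0.68 and MALAT1 by 0.38.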
